A study of Mus musculus with 36 samples.

Results

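The genes followed here were 40 of the 32285 mouse gene IDs in the deposited count table, namely the transcription factor gene Myc and 39 genes of ribosome assembly and RNA polymerase I (Pol I) transcription. They were taken by symbol from a fixed list, which was chosen with earlier results of these data known and is no independent evidence. By role they comprised Myc, 5 genes of Pol I transcription, 4 genes of box C/D and 4 of box H/ACA small nucleolar ribonucleoproteins (snoRNPs), 4 nucleolar proteins, 9 factors of the small ribosomal subunit and 13 of the large subunit. All 40 were found and all 40 passed the filter on low counts in every fit. The lowest count of any of them in any library was 893, for Gar1.

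The study measured messenger RNA in AT-3 and E0771, both mouse breast cancer cell lines. In each line, cells were seeded for 24 h and then treated for 24 h with DMSO, the solvent control, with 10 µM NS11021, with 10 µM BMS204352, with 40 mM KCl, or with 40 mM KCl plus 10 µM of either compound. NS11021 and BMS204352 are known as openers of potassium channels. With 3 libraries in each of the 12 groups there were 36 libraries. No group received another salt at the same concentration, so an effect of potassium cannot be told apart from one of chloride or of osmolarity, and the labels do not say whether the KCl wells also held DMSO. Nothing says whether the 3 libraries of a group came from separate cultures, so p-values measure the spread between these libraries, which may be technical. In whole cultures, fewer cells of one kind and less RNA per cell cannot be told apart.

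Ribosomes are built in the nucleolus. Pol I transcribes the ribosomal DNA into a long precursor RNA, small nucleolar RNAs in snoRNPs direct its chemical modification and part of its folding and cleavage, and large sets of assembly factors then build the small and the large subunit and are released. Many of the genes for these factors are known targets of the MYC protein, which binds the E-box CACGTG with its partner MAX, and the set as a whole is known to follow cell growth.

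Libraries held 31248794 to 52581746 counts. Median coefficients of variation of the members within a group ran from 4.89% to 6.96% in the AT-3 groups and from 2.72% to 6.04% in the E0771 groups, so E0771 gave the narrower errors. The replicate 3 libraries of AT-3 BMS204352, AT-3 KCl+BMS204352 and E0771 BMS204352 had stood apart from their groups in earlier results of these data. Several E0771 results are also given without these 3, which in a fit of E0771 alone leaves out only the E0771 library. The AT-3 values are given with all 3. For the members, the E0771 one held 1.34% of its counts on them, against 1.27% and 1.21% in its group. The AT-3 BMS204352 one held 0.725%, against 0.808% and 0.759%, and the AT-3 KCl+BMS204352 one 0.677%, against 0.736% and 0.672%. Of the epithelial markers, AT-3 held Cdh1 at 379 to 504 CPM (counts per 1000000 counts of the library) and Epcam at 114 to 174 CPM. Krt18 stood at 20.1 to 74.6 CPM in AT-3, while Krt8 was near absent there, at no more than 1.56 CPM. E0771 held Krt8 at 139 to 227 CPM, while Epcam, Cdh1 and Krt18 were near absent, at no more than 0.345, 1.80 and 0.180 CPM. Of the 4 fibroblast markers in E0771, Pdgfra stood at 87.5 to 126 CPM and Col1a1 at 28.4 to 77.8 CPM. Dcn and Lum, also fibroblast markers, had no counts in any E0771 library. The 4 leukocyte markers summed to no more than 0.142 CPM in any library, and the 4 endothelial markers to no more than 4.34 CPM.

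RefSeq's promoter table of GRCm38.p6, which spans 250 bases before to 50 after a gene's start, matched 33 of the 40 members. Tcof1, Bop1, Fbl, Myc, Rrp12, Rrs1 and Npm1 were not matched. Both strands were searched for 7 motifs. CACGTG, the palindromic E-box, was in 7 of the 33 promoters (21.2%), against 11.6% of the 10106 promoters of genes tested in E0771 and 8.09% of 27025 genes in the table. Each match is shown because CACGTG is the site that MYC is known to bind, with the E-box in capitals and 5′ to 3′ on the gene's strand:
Rrn3, upstream of the start, chr16:13780472-13780501, plus strand: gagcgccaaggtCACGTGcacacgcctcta
Rrn3, a further match upstream, chr16:13780639-13780668, plus strand: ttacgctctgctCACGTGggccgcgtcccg
Nop2, upstream, chr6:125131811-125131840, plus strand: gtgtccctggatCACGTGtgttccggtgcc
Utp4, downstream of the start, chr8:106893643-106893672, plus strand: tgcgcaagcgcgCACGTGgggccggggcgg
Wdr43, downstream, chr17:71616220-71616249, plus strand: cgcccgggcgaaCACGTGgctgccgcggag
Pes1, downstream, chr11:3963965-3963994, plus strand: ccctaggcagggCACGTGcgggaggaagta
Ltv1, downstream, chr10:13193092-13193121, minus strand: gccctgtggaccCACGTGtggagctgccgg
Utp20, downstream, chr10:88826765-88826789, minus strand, where the window ends: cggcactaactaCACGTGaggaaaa

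The flanks of these E-boxes differed from gene to gene. The variant E-box CACGCG was in 10 of the 33 promoters (30.3%, against 19.6% of those tested in E0771), and CGGAAGT, a motif of ETS-family factors, in 11 (33.3%, against 15.01%). TGACGTCA was in 2 of the 33, GATGAG in 7, GAGATGAG, which contains GATGAG, in 1, and the ZNF143 motif in 0. Against the 10106 tested genes the last 4 stood at 3.62%, 11.6%, 1.35% and 0.782%. These are matches of letters within one window and were not measured as binding.

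Untreated E0771 cells held more of most of these transcripts than untreated AT-3 cells. In DMSO, 35 of the 40 members were higher in E0771 and 1 was lower, by edgeR's quasi-likelihood test at a Benjamini-Hochberg adjusted p below 0.05, where 34.1% of all 15969 genes tested were higher and 40.4% lower. The median log2 difference of the members was 0.86, a fold of 1.81, and that of all genes was -0.09. The 3 E0771 libraries lay above all 3 AT-3 libraries for the 35 members, against 35.5% of all genes.

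Myc stood at 153, 125 and 152 CPM in AT-3 DMSO and at 556, 564 and 554 CPM in E0771 DMSO. The groups lay far apart, with a log2 difference of 1.96 ± 0.10 (SE; adjusted p = 5.55e-18). After Myc, the next differences were those of Noc2l (1.68 ± 0.06), a large subunit factor, Nop2 (1.64 ± 0.05), an RNA methyltransferase of that subunit, and Utp4 (1.61 ± 0.07), part of the early complex on the small subunit precursor. Polr1a, the largest subunit of Pol I, differed by 1.45 ± 0.09, while Polr1b, its second largest, differed by 0.70 ± 0.06. Rrn3, the initiation factor that brings Pol I to the promoter, was the single member lower in E0771 (-0.18 ± 0.06). Pes1, Npm1, Noc4l and Utp20 did not pass, with log2 differences of 0.11, -0.10, -0.08 and -0.02. Since 20.9% of the exon bases of Noc2l overlap Samd11 and the strand used in counting is not given in the sources used here, its reads and those of Samd11 cannot be told apart there.

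**Figure D1:**
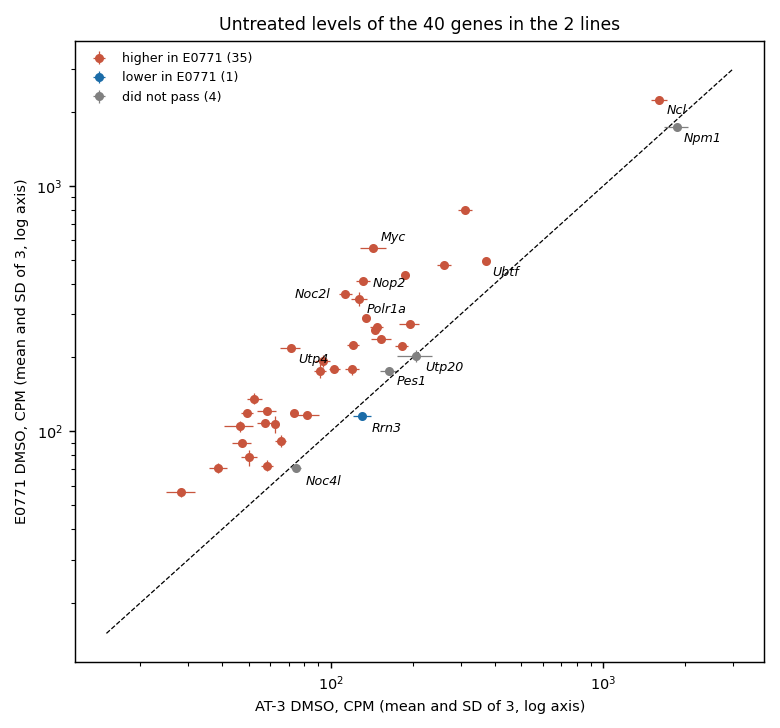
Mean CPM of each of the 40 genes in untreated AT-3 (x axis) and E0771 (y axis) cells on log axes, with SD over 3 libraries and a dashed line of equal levels. 35 genes lie above the line as higher in E0771, Myc farthest from it, and Rrn3 is the single gene called lower.

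Per kilobase of exon, Npm1 (nucleophosmin) was the member with the highest DMSO level in both lines, at 699 CPM per kb in AT-3 and 650.2 in E0771. Wdr12 was the lowest, at 4.88 and 6.05 CPM per kb, and the medians of the 40 were 28.2 and 45.3 CPM per kb. Together the members took 0.756% to 0.845% of all counts in AT-3 DMSO and 1.23% to 1.27% in E0771 DMSO.

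In E0771, KCl lowered 39 of the 40 members, and the 1 that did not fall was Ubtf. Of all 13357 genes tested there, 18.6% were lower and 17.8% higher. The members' log2 fold changes ran from -0.69 to 0.08 with a median of -0.35, a fall to 0.786 of the DMSO level, while the median of all genes was -0.01. In each of the 39 members all 3 KCl libraries lay below all 3 DMSO libraries, which held for 26.7% of all genes. The share of all counts that went to the members was 0.972% to 0.999% in the KCl libraries, below every DMSO library.

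**Figure D2:**
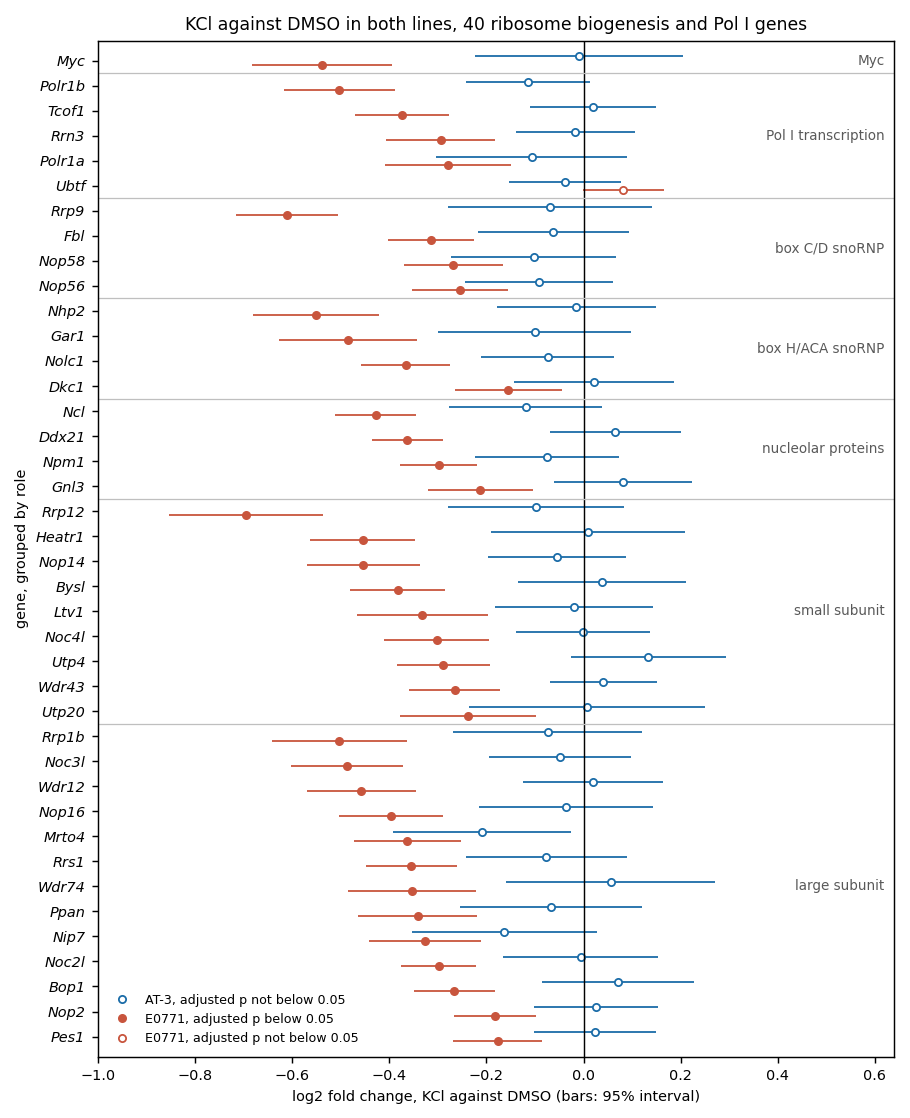
Log2 fold change of KCl against DMSO (x axis, bars are 95% intervals) for each member, grouped by role, in AT-3 (blue) and E0771 (red). Filled points passed an adjusted p of 0.05: 39 members are filled and to the left of 0 in E0771, and 0 are filled in AT-3.

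Myc read 556, 564 and 554 CPM in E0771 DMSO and 367, 385 and 391 CPM in E0771 KCl. All KCl libraries were the lower ones, and the log2 fold change was -0.54 ± 0.07 (SE; edgeR adjusted p = 6.26e-06), a fall of 31.2%.

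Among the 5 Pol I transcription genes, 4 fell. Polr1b read 117, 121 and 118 CPM in DMSO and 84.0, 80.7 and 85.1 CPM in KCl, without overlap, a log2 fold change of -0.50 ± 0.06 (edgeR adjusted p = 1.73e-08). Tcof1 (treacle, which holds Pol I and its factors at the ribosomal DNA) changed by -0.37 ± 0.05, Rrn3 by -0.29 ± 0.05 and Polr1a by -0.28 ± 0.06. Ubtf encodes UBF, which binds along the ribosomal DNA and keeps it open for Pol I. Ubtf read 497, 491 and 493 CPM in DMSO and 524, 521 and 509.8 CPM in KCl. Its 3 KCl libraries were the higher ones, as for 24% of all genes, but the log2 fold change of 0.08 ± 0.04 did not pass (edgeR adjusted p = 0.121, 95% interval -0.0017 to 0.16). With a fit of the KCl and DMSO groups alone Ubtf passed as higher, beside the same 39 members that were lower.

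All 4 box C/D snoRNP genes fell. These particles place methyl groups on the ribosomal RNA, with Fbl (fibrillarin) as the methyltransferase and Nop56 and Nop58 as its scaffold, and Rrp9 is a component of the U3 particle needed for the first cleavages. Rrp9 read 119, 120.4 and 118 CPM in DMSO and 76.5, 78.3 and 77.4 CPM in KCl. That was a tight and complete separation, with a log2 fold change of -0.61 ± 0.05 and the smallest adjusted p among the members (6.84e-11, edgeR). Nop56 read 285, 272 and 265 CPM in DMSO and 235, 225 and 224 CPM in KCl. It did not overlap either, at -0.25 ± 0.05 (edgeR adjusted p = 9.07e-05), and Fbl and Nop58 changed by -0.31 ± 0.04 and -0.27 ± 0.05. Of the exon bases of Nop56, 8.12% overlap snoRNAs encoded within it.

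All 4 box H/ACA genes fell as well. These particles turn uridines of the ribosomal RNA into pseudouridines, with Dkc1 (dyskerin) as the enzyme, Gar1 and Nhp2 as core partners and Nolc1 as a nucleolar chaperone of snoRNPs. Nolc1 read 477, 462 and 490.4 CPM in DMSO and 376, 361 and 364 CPM in KCl, a log2 fold change of -0.37 ± 0.05 (edgeR adjusted p = 1.01e-07). Nhp2 and Gar1 changed more, by -0.55 ± 0.06 and -0.49 ± 0.07. Dkc1 read 233, 216 and 225 CPM in DMSO and 207, 198 and 195 CPM in KCl. The gap between its groups was narrow, and its change of -0.16 ± 0.05 was the smallest of the 39 (edgeR adjusted p = 0.0241). Dkc1 no longer passed without DMSO replicate 1 (adjusted p = 0.116), DMSO replicate 3 (0.0620), KCl replicate 2 (0.0740) or KCl replicate 3 (0.0876).

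The 4 nucleolar proteins fell, all with separate groups. Ddx21, an RNA helicase that acts in Pol I transcription and rRNA processing, read 817, 785 and 792 CPM in DMSO and 629, 604 and 615 CPM in KCl, a log2 fold change of -0.36 ± 0.04 (edgeR adjusted p = 1.55e-09). Gnl3 (nucleostemin, a nucleolar GTPase) read 190.0, 171 and 169.9 CPM in DMSO and 155, 149 and 151 CPM in KCl, a change of -0.21 ± 0.05 (edgeR adjusted p = 0.00178). Ncl (nucleolin, an RNA-binding protein) and Npm1 (a nucleolar chaperone), which had the highest CPM of the members in E0771, changed by -0.43 ± 0.04 and -0.30 ± 0.04.

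All 9 small subunit factors fell, by a median log2 fold change of -0.33. Heatr1, an early factor that also acts in Pol I transcription, read 191, 185 and 205 CPM in DMSO and 139, 144 and 138 CPM in KCl, a change of -0.46 ± 0.05 (edgeR adjusted p = 4.36e-08). Utp20, a large scaffold of the same particle, read 205, 189.7 and 212 CPM in DMSO and 165, 173 and 172 CPM in KCl, a change of -0.24 ± 0.07 (edgeR adjusted p = 0.00748). Rrp12, a factor in pre-ribosome export, changed by -0.69 ± 0.08, the lowest of all 40. Nop14 (-0.45 ± 0.06), its partner Noc4l (-0.30 ± 0.05), Bysl (-0.38 ± 0.05), Ltv1 (-0.33 ± 0.07), Utp4 (-0.29 ± 0.05) and Wdr43 (-0.27 ± 0.05) lay between. Bysl and Ltv1 act late on the small subunit, and Utp4 and Wdr43 early. Bysl shares 9.37% of its exon bases with Ccnd3, and Nop14 5.28% with an annotated neighbour.

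All 13 large subunit factors fell, by a median of -0.35. Noc3l, a factor of the early large subunit precursor, read 72.4, 67.2 and 72.9 CPM in DMSO and 48.3, 52.0 and 50.1 CPM in KCl, a change of -0.49 ± 0.06 (edgeR adjusted p = 3.31e-08). Pes1 read 174, 175 and 179 CPM in DMSO and 152, 151 and 160.1 CPM in KCl, a change of -0.18 ± 0.04 (edgeR adjusted p = 0.00213). Pes1, Bop1 and Wdr12 form one complex (PeBoW), and its 3 genes moved by unlike amounts: Bop1 by -0.27 ± 0.04 and Wdr12 by -0.46 ± 0.06. Rrp1b, Nop16, Mrto4, Rrs1, Wdr74, Ppan, Nip7, Noc2l and Nop2 ran from -0.50 ± 0.07 for Rrp1b to -0.18 ± 0.04 for Nop2. Rrs1 acts with the particle that carries the 5S RNA, Mrto4 holds the place of the ribosomal stalk, and Wdr74 and Nip7 act in processing of the large subunit precursor. Mrto4 has 2 annotated pseudogenes, which could share its reads.

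The 7 members with a CACGTG match in the window changed by -0.33 (Ltv1), -0.29 (Rrn3), -0.29 (Utp4), -0.27 (Wdr43), -0.24 (Utp20), -0.18 (Nop2) and -0.18 (Pes1). Each of these log2 fold changes was closer to 0 than the median of the 40 (-0.35), which also covers the 7 members whose promoters were not matched. The part of MYC binding in these changes was not tested.

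Summed cell type markers also separated the KCl from the DMSO libraries in E0771. The 4 epithelial markers summed to 202 to 207 CPM in DMSO and 157 to 166 CPM in KCl, most of it Krt8. The 4 fibroblast markers summed to 174 to 193 and 139.6 to 146 CPM, all of it Pdgfra and Col1a1, as Dcn and Lum had no counts. Endothelial markers summed to 0.661 to 1.02 CPM in DMSO and 2.01 to 4.34 CPM in KCl. The part of these in the fall of the members was not tested. Mitochondrial transcripts took 0.626% to 0.720% of counts in DMSO and 0.678% to 0.739% in KCl, ranges that overlap.

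In AT-3, KCl called 0 of the 40 members by edgeR, where 4.83% of all 14772 genes tested passed in either direction. The members' median log2 fold change was -0.03 (range -0.21 to 0.13), and 1 of them, Mrto4, had an unadjusted p below 0.05 (-0.21 ± 0.09, adjusted p = 0.204), against 17.7% of all genes. DESeq2 also called 0, against 6.98%. Myc read 153, 125 and 152 CPM in DMSO and 151, 124 and 150.1 CPM in KCl, pairs of nearly equal values. Its log2 fold change was -0.01 ± 0.10, with a 95% interval of -0.22 to 0.21 that leaves out the E0771 value.

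The members with full values in E0771 overlapped between groups in AT-3, Polr1b excepted. Polr1b read 73.1, 73.9 and 72.2 CPM in DMSO and 61.8, 69.4 and 70.2 CPM in KCl, all lower, with a change of -0.11 ± 0.06 (edgeR adjusted p = 0.351). Ubtf read 377, 358 and 375 against 371, 347 and 357 CPM, Rrp9 51.1, 46.5 and 50.5 against 47.1, 40.0 and 53.5 CPM, and Nop56 211, 179 and 194 against 184, 168 and 193 CPM. The DMSO values come first in each, and every pair of groups overlaps. Nolc1 read 272, 244 and 267 against 245, 247 and 248 CPM, Dkc1 127, 115 and 120.1 against 126, 111 and 129.6 CPM, and Ddx21 332, 296 and 305 against 333, 319 and 319 CPM. Gnl3 read 96.5, 89.9 and 87.6 against 99.9, 89.4 and 99.2 CPM, Heatr1 87.8, 99.8 and 92.9 against 84.1, 106 and 90.7 CPM, and Utp20 175, 236 and 206 against 193, 239 and 185 CPM. Noc3l read 39.1, 35.5 and 41.2 against 34.7, 39.1 and 37.7 CPM, and Pes1 176, 152 and 162 against 168, 159.6 and 169 CPM. In all, 2 of the 40 members had all 3 KCl libraries below DMSO, against 12.5% of all genes, and 0 had all 3 above, against 12.3%.

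**Figure D3:**
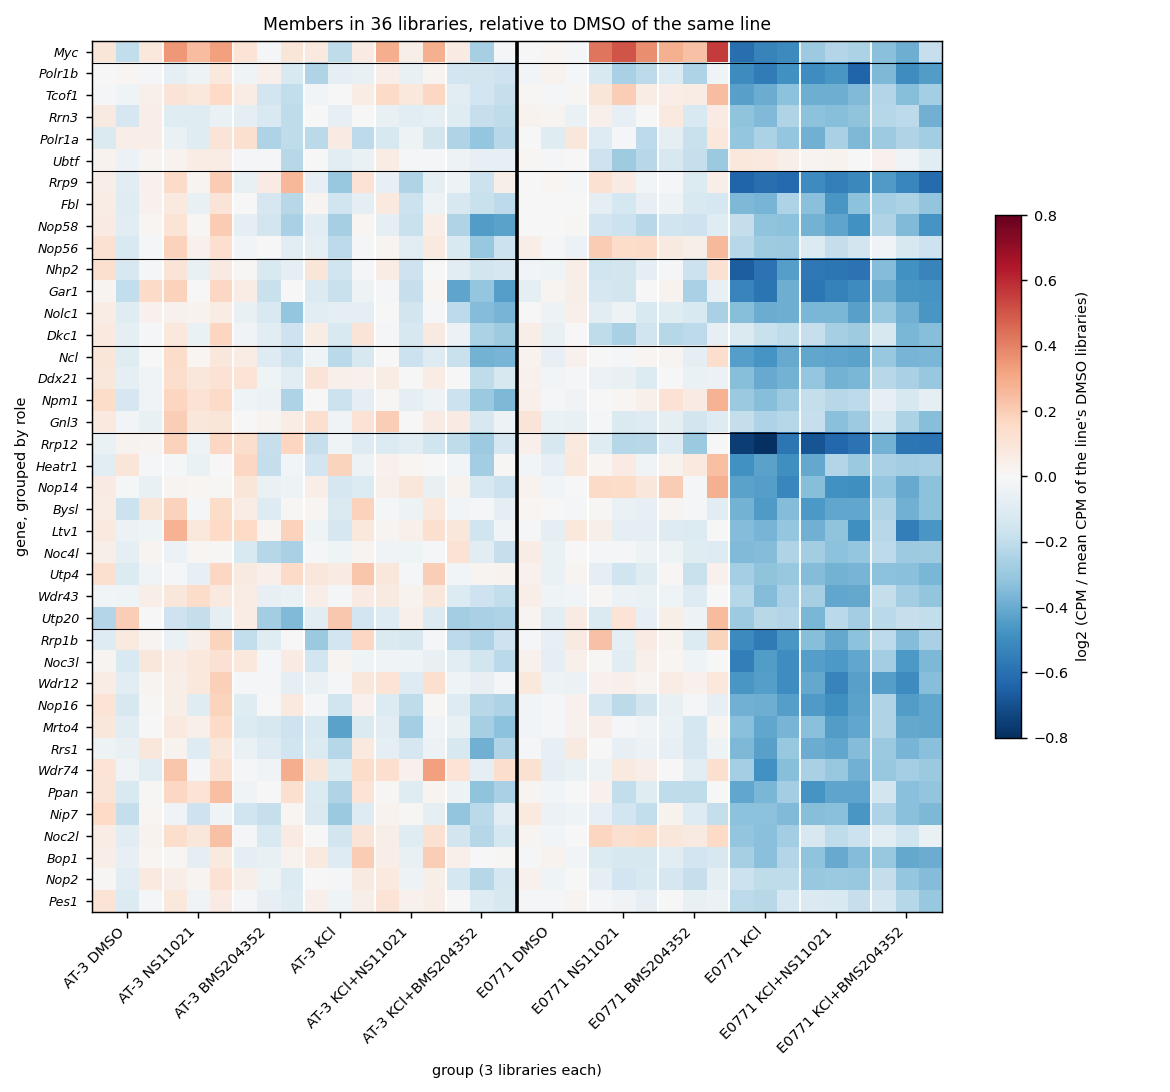
Log2 of each library's CPM over the mean of the same line's DMSO libraries (colour) for the 40 members (rows, grouped by role) in 36 libraries (columns, 3 per group). The 9 E0771 libraries with KCl are blue in nearly every row, Ubtf excepted, and the AT-3 libraries show no such block.

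The lines differed in this response. In one fit of all 36 libraries, the KCl effect was lower in E0771 than in AT-3 for 26 of the 40 members and higher for 0, by edgeR's test of the difference, where 5.02% of all genes were lower and 4.11% higher. The median difference of log2 fold changes was -0.32. It was -0.54 ± 0.13 for Myc (adjusted p = 0.00701), -0.60 ± 0.12 for Rrp12, -0.55 ± 0.12 for Rrp9, -0.54 ± 0.11 for Nhp2, -0.49 ± 0.09 for Wdr12, -0.44 ± 0.07 for Ddx21 and -0.40 ± 0.08 for Tcof1. By role, the difference passed for Myc, for Tcof1, Polr1b and Rrn3 of the Pol I genes, for Rrp9 alone of the box C/D genes, for 3 of the box H/ACA genes, 3 of the nucleolar genes, 7 of the small subunit and 8 of the large subunit factors. Without E0771 KCl replicate 2 or AT-3 KCl replicate 3 the count was 16, and without AT-3 DMSO replicate 2 it was 17.

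The compounds alone moved few members in E0771, in both directions. NS11021 raised 3 (12.8% of all genes were higher) and lowered 7 (13.5% lower), and BMS204352 raised 6 and lowered 6 (11.3% of all genes in each direction). Shares of the members near those of all genes are no result about the members. These comparisons and that of KCl share the same 3 DMSO libraries.

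Myc rose with both compounds. It read 749, 791 and 720.3 CPM with NS11021 and 679, 656 and 820.4 CPM with BMS204352, all above the 3 DMSO libraries, with log2 fold changes of 0.43 ± 0.07 (edgeR adjusted p = 0.000145) and 0.37 ± 0.07 (adjusted p = 0.000823). Ubtf fell with both. It read 441, 405 and 423 CPM with NS11021 and 451, 434 and 401 CPM with BMS204352, all below DMSO, with changes of -0.22 ± 0.04 (edgeR adjusted p = 0.000118) and -0.20 ± 0.04 (adjusted p = 0.000725). Without the libraries that stand apart, the changes with BMS204352 were smaller. They were 0.27 ± 0.05 for Myc (edgeR adjusted p = 7.98e-05) and -0.15 ± 0.04 for Ubtf (adjusted p = 0.00490).

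With NS11021, Nop56 (0.17 ± 0.05) and Noc2l (0.15 ± 0.04) also rose. Dkc1 (-0.21 ± 0.05), Polr1b (-0.20 ± 0.06), Nop58 (-0.18 ± 0.05), Nop16 (-0.16 ± 0.05), Bop1 (-0.12 ± 0.04) and Nop2 (-0.12 ± 0.04) fell. The count of 10 was 6 without NS11021 replicate 2. With BMS204352, Nop14 (0.17 ± 0.06), Npm1 (0.16 ± 0.04), Nop56 (0.14 ± 0.05), Tcof1 (0.13 ± 0.05) and Noc2l (0.11 ± 0.04) also rose. Dkc1 (-0.16 ± 0.05), Nolc1 (-0.15 ± 0.04), Nop58 (-0.14 ± 0.05), Nop2 (-0.12 ± 0.04) and Bop1 (-0.12 ± 0.04) fell. Without the libraries that stand apart, BMS204352 raised 2 and lowered 6, and Tcof1, Nop56, Nop14, Noc2l, Nolc1 and Bop1 no longer passed. Npm1 still passed there, at 0.10 ± 0.03. The 6 lowered in that fit included Polr1b (-0.17 ± 0.06) and Ppan (-0.20 ± 0.06), which had not passed with all libraries. The count of 12 was 7, 6 and 4 without DMSO replicates 1, 2 and 3.

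At the same dose and time the compounds differed in 0 of the 40 members in E0771 by edgeR, where 1.76% of all genes passed, and 2 had an unadjusted p below 0.05 (13% of all genes). The 95% intervals of the differences, BMS204352 minus NS11021, lay between -0.21 and 0.26 on the log2 scale. The smallest adjusted p was that of Npm1, at 1736, 1751 and 1784 CPM with NS11021 and 1875, 1816 and 2099 CPM with BMS204352 (0.14 ± 0.04, edgeR adjusted p = 0.0508), and DESeq2 called it (2.62% of all genes). Without the libraries that stand apart, here BMS204352 replicate 3, Npm1 was at 0.07 ± 0.03 (edgeR adjusted p = 0.309) and Myc passed as lower with BMS204352 than with NS11021 (-0.17 ± 0.05, adjusted p = 0.0430).

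In AT-3 the compounds called 0 members each in the main edgeR fit, where NS11021 moved 0.0745% of all genes and BMS204352 5.27%. Counts with the replicate number as a block, which differed, are given at the end. With NS11021, 7 members had an unadjusted p below 0.05, against 7.64% of all genes. Among them was Myc, at 182, 169.9 and 179.9 CPM, above the 3 DMSO libraries (0.32 ± 0.10, edgeR adjusted p = 0.471). With BMS204352, 3 members did (21.7% of all genes), and Myc read 155, 142 and 154 CPM (0.08 ± 0.10, adjusted p = 0.714). DESeq2 called 0 in both comparisons, against 0.474% and 9.31% of all genes. Between the compounds, 0 members passed in AT-3 in the main edgeR fit (2.94% of all genes), 14 had an unadjusted p below 0.05 (18.1%), and DESeq2 called 3 (6.13%), all lower with BMS204352. The difference between lines in the NS11021 effect passed for 1 member, Ubtf (-0.29 ± 0.07, edgeR adjusted p = 0.00787), where 2.5% of all genes were lower. AT-3 Ubtf read 377, 385 and 385 CPM with NS11021. That call was lost without E0771 NS11021 replicate 2 (adjusted p = 0.0576). For the BMS204352 effect the lines differed in 0 members by edgeR (5.01% of all genes), with 4 at an unadjusted p below 0.05 (19.1%) and 1 by DESeq2 (8.12%).

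**Figure D4:**
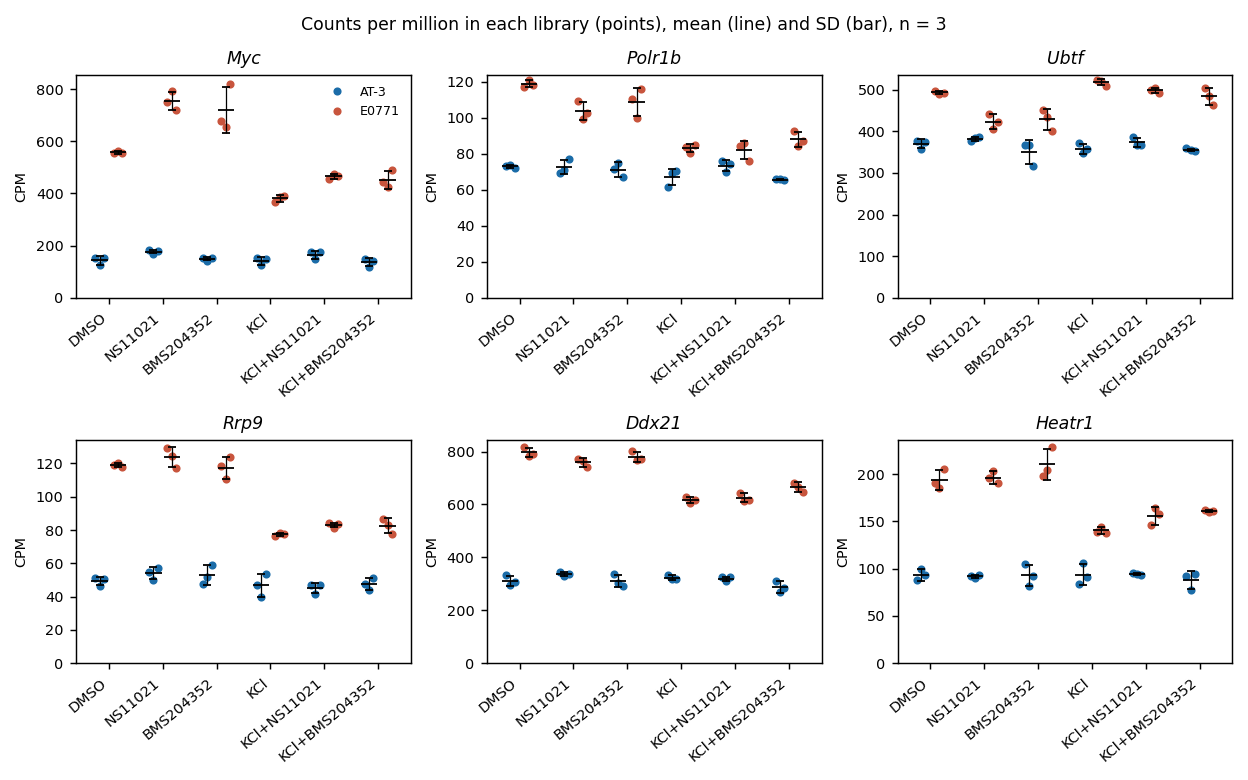
CPM (y axes, from 0) of Myc, Polr1b, Ubtf, Rrp9, Ddx21 and Heatr1 in each library (points) of the 6 treatments (x axes) in AT-3 (blue) and E0771 (red), with mean and SD of 3. In E0771, Myc is above DMSO with either compound and below it with KCl, while Ubtf is below DMSO with either compound alone.

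On top of KCl in E0771, few members passed with either compound. NS11021 with KCl raised 3 against KCl alone (9.59% of all genes) and lowered 1 (7.66%), and BMS204352 with KCl raised 7 (9.85%) and lowered 0 (10.1%). The counts with NS11021 lay below the shares of all genes and are no result about the members. Myc read 455, 475 and 467 CPM in KCl with NS11021, above every KCl library and below every DMSO library (0.29 ± 0.07 against KCl, edgeR adjusted p = 0.00680). It read 442, 426 and 492 CPM in KCl with BMS204352, again between the 2 sets of libraries (0.24 ± 0.07, edgeR adjusted p = 0.0197). The Myc call with BMS204352 was lost without KCl replicate 1 (adjusted p = 0.0894), KCl replicate 2 (0.0587) or KCl+BMS204352 replicate 3 (0.125).

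Heatr1 (0.16 ± 0.05 with NS11021, 0.19 ± 0.05 with BMS204352) and Noc2l (0.15 ± 0.04 and 0.20 ± 0.04) rose with both compounds over KCl, in comparisons that share the 3 KCl libraries. Heatr1 with NS11021 no longer passed under DESeq2, with DESeq2 size factors, or without any one of KCl replicates 1, 2 and 3 and KCl+NS11021 replicates 2 and 3 (edgeR adjusted p from 0.0508 to 0.240 in these edgeR fits). Npm1 (0.21 ± 0.04), Rrp1b (0.23 ± 0.07), Nop56 (0.15 ± 0.05) and Ddx21 (0.10 ± 0.04) rose with BMS204352, and Nop58 fell with NS11021 (-0.15 ± 0.05). Npm1 read 1409, 1371 and 1416 CPM in KCl and 1659, 1584 and 1646 CPM in KCl with BMS204352, short of all 3 DMSO libraries at 1778, 1722 and 1698 CPM. The 4 calls with NS11021 were 2 without any one of KCl replicates 1 and 2 and KCl+NS11021 replicates 2 and 3, and 8 without the libraries that stand apart. The 7 calls with BMS204352, all higher, were 3 higher and 1 lower without KCl replicate 2, 4 higher and 4 lower without KCl+BMS204352 replicate 1, and 11 (8 higher, 3 lower) without the libraries that stand apart.

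Most members stayed below DMSO in the combined groups. In KCl with NS11021, 39 members (all but Ubtf) had all 3 libraries below all 3 DMSO libraries, against 27.1% of all genes, and in KCl with BMS204352 38 did (all but Nop56 and Ubtf), against 21.3%. Ubtf read 500.1, 504 and 492 CPM and 505, 485 and 463 CPM in these groups, overlapping DMSO. The effect of BMS204352 differed between wells with and without KCl in 0 members by edgeR (1.62% of all genes), with 6 at an unadjusted p below 0.05 (13%) and 0 by DESeq2 (3.04%). Mitochondrial transcripts took 0.789% to 1.03% of counts in KCl with BMS204352 in E0771, above KCl alone, and their part in these results was not tested.

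In AT-3, 0 members passed with either compound over KCl in the main edgeR fit, where 0.0203% of all genes passed with NS11021 and 1.24% with BMS204352. That fit did not pair libraries by replicate number, and counts of a fit with that number as a block, which differed, are given at the end. With NS11021, 2 members had an unadjusted p below 0.05 (3.72% of all genes) and DESeq2 called 0 (0.0948%). With BMS204352, 14 members had an unadjusted p below 0.05 (16.3%), the median was -0.12 and DESeq2 called 3 as lower (3.45%). The smallest adjusted p there was that of Wdr43 (-0.20 ± 0.05, edgeR adjusted p = 0.0616). Of the 40, 16 had all 3 KCl+BMS204352 libraries below all DMSO libraries, against 14.5% of all genes. Those libraries also had 0.687% to 0.792% of counts on mitochondrial transcripts, against 0.520% to 0.570% in AT-3 DMSO, and the part of this in the values was not tested. The BMS204352 effect with and without KCl differed in 0 members in AT-3 (0% of all genes), with 2 at an unadjusted p below 0.05 (3.61%) and 0 by DESeq2 (0%).

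Genes around the members were described in 9 lists holding 263 genes. Of all genes tested in E0771 with KCl, 18.6% were lower and 17.8% higher. In E0771 with KCl, assembly factors outside the 40 behaved alike: 36 of 41 other small subunit factors fell and 0 rose (median log2 fold change -0.29), 30 of 40 other large subunit factors fell and 0 rose (-0.26), and 9 of 11 other snoRNP factors fell and 1 rose (-0.28). Pwp2, of the early small subunit particle, read 119.6, 116 and 116 CPM in DMSO and 84.4, 81.4 and 83.1 CPM in KCl (-0.49 ± 0.05). Pno1, which acts late on that subunit, changed by -0.56 ± 0.06. Pwp1 (-0.66 ± 0.05), a nucleolar protein, and Las1l (-0.57 ± 0.05), part of the nuclease that cuts the second internal spacer, led the large subunit list. Snu13 (-0.37 ± 0.04), a core box C/D protein, and Ruvbl2 (-0.39 ± 0.04), a snoRNP assembly ATPase, fell, while Pih1d1 of the same assembly machinery rose (0.30 ± 0.10).

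The polymerase lists moved less. Of 17 other Pol I genes 6 fell and 1 rose (median -0.18), where 18.6% of all genes fell and 17.8% rose. Polr1e (-0.42 ± 0.08) and the shared subunit Polr2f (-0.34 ± 0.05) were lower. Baz2a, known for silencing ribosomal DNA, was higher (0.17 ± 0.05). Of 21 Pol III genes 6 fell and 1 rose (median -0.13), against the same shares of all genes. Polr3g, a Pol III subunit gene, changed by -0.65 ± 0.08, and the Pol III repressor Maf1 rose by 0.36 ± 0.05. Maf1 (0.25 ± 0.06) and Polr3g (-0.49 ± 0.09) were also the 2 Pol III genes that passed in AT-3 with KCl. Each of the other 8 lists had 0 there, and 4.83% of all genes passed in either direction.

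The 79 cytosolic ribosomal protein genes, the products that the assembly factors put together, did not follow the factors. With KCl in E0771, 10 fell (18.6% of all genes) and 4 rose (17.8%), and the median of the 79 was -0.02. Rpl14 (-0.12 ± 0.03) and Rps2 (-0.10 ± 0.03) were lower, and Rpl13a (0.20 ± 0.04) and Rps27 (0.17 ± 0.04) higher. With NS11021 45 of the 79 rose (12.8% of all genes) and with BMS204352 49 (11.3%). Over KCl 63 rose with NS11021 (9.59% of all genes) and 50 with BMS204352 (9.85%). In each of these 4 comparisons 0 were lower, against 7.66% to 13.5% of all genes. The medians of these 4 comparisons lay between 0.10 and 0.13. Ribosomal protein genes have many processed pseudogenes, so how the counting shared their reads could affect single genes. Of 11 snoRNA host genes tested, 1 fell (Snhg5, -0.66 ± 0.15) and 1 rose (Snhg8, 0.51 ± 0.12) with KCl, where 18.6% of all genes fell and 17.8% rose.

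In the list of MYC family genes and partners, 5 of 10 tested rose and 1 fell in E0771 with KCl. Of all genes, 17.8% rose and 18.6% fell in that comparison. Those of the list named by the smallest adjusted p were genes of MYC antagonists, which compete for MAX: Mxd4 read 14.9, 19.3 and 19.3 CPM in DMSO and 33.9, 36.7 and 33.4 CPM in KCl (0.97 ± 0.11). Mxi1 rose by 0.57 ± 0.06, and Mxd3, of the same antagonist family, fell by 0.39 on the log2 scale (SE 0.13). Among 24 genes known to respond to MYC outside ribosome assembly, 19 fell and 3 rose (median -0.24), with the arginine methyltransferase gene Prmt5 at -0.54 ± 0.04 and the chaperone gene Hspd1 at -0.41 ± 0.04. The 2 named as higher, Ldha (0.33 ± 0.04) of glycolysis and Tert (1.42 ± 0.33) of telomerase, went the other way. Tert was at 0.488 to 1.55 CPM in DMSO, a low level.

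**Figure D5:**
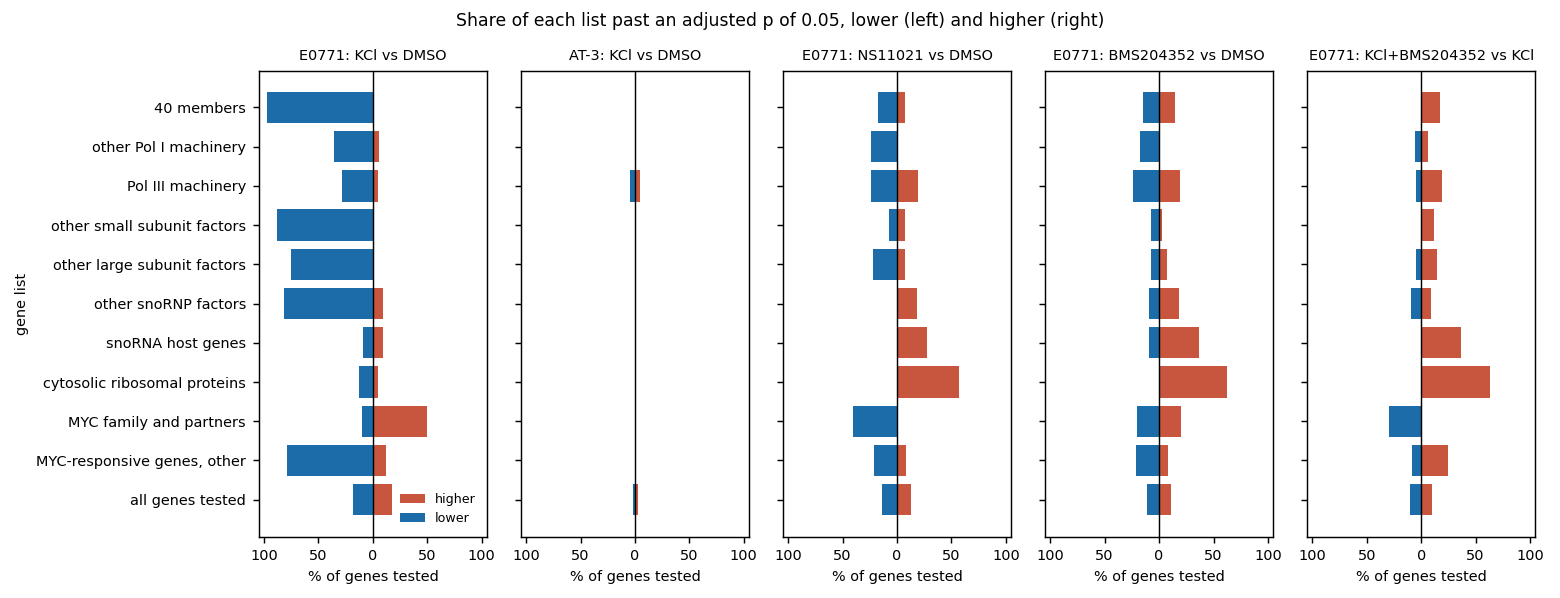
Share of tested genes in each list (rows, the 40 members at the top and all genes tested at the bottom) that were lower (blue, left) or higher (red, right) at an adjusted p below 0.05, in 5 comparisons. With KCl in E0771 the assembly lists are mostly blue while the cytosolic ribosomal proteins are not, and the ribosomal proteins are mostly red with the compounds.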

How the data were processed

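Per the labels' protocols, the NuGen Universal Plus mRNA kit was used on RNA from Qiagen RNeasy columns. The authors deposited raw whole-number counts per gene, made with STAR and featureCounts on GRCm38 per the submitters' processing notes; the sources used here give neither versions nor the strand setting. Of 32287 IDs, 2 human ones (6 counts) were left out. Symbols came from GENCODE vM21, and 50 IDs had none. Even numbers made up 84.5% of the counts from 1 to 10, as could arise if each mate of a pair had been counted. The sources used here do not say so, and in that case a count would hold less independent information than its size.

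Counts were tested with edgeR 4.0.16 (R 4.3.3) by a robust quasi-likelihood fit with TMM scaling and filterByExpr (minimum count 10). Each line was fitted with its 18 libraries (14772 genes in AT-3, 13357 in E0771), and all 36 together (15969 genes) for line differences. That gave 18 comparisons, each with Benjamini-Hochberg adjustment over all its genes and a threshold of 0.05. Values after ± are standard errors, and intervals are at 95%. CPM were computed over each library's total without the TMM factors, which ran from 0.979 to 1.02. On simulated data with a fold of 1.5, the KCl comparison recovered 58% of changed genes in AT-3 (14772 genes) and 62% in E0771 (13357 genes), with 0 wrong signs. At a fold of 1.25 it recovered 8% and 44%. The changed genes were drawn at random from all genes tested, low counts included, so these shares are not those for the members. Only 50 genes were changed at each fold, whereas with KCl 4.83% of all genes passed in AT-3 and 36.4% in E0771. Recovery in the data may differ for that reason too. In the KCl comparison the members' 95% intervals had a median half-width of 0.16 in AT-3 and 0.11 in E0771 on the log2 scale.

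Members and lists were chosen with earlier results of these data known, so no list is independent evidence. Per-library values were given for Myc and, per role, for the members with the smallest and the largest adjusted p in E0771 KCl against DMSO. Other members shown by library were chosen after their values were seen. From each pathway list at most 2 higher and 2 lower genes were named, and 1 gene that this rule names is not reported here. Alternatives were DESeq2 1.42.0, the replicate number as a block, a fit of the compared groups alone, edgeR with size factors from DESeq2, no low-count filter or one of 1 CPM in 3 libraries, halved counts, leaving out 3 libraries that stood apart, and leaving out each library. Utp25, Snhg4, Snhg7 and Snhg16 were listed but not analysed here.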

Additional observations from a re-analysis of the deposited data

Results flagged for a closer look

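The KCl effect differed between the lines by the test of the difference itself in 26 of the 40 members, all lower in E0771. Of all genes, 5.02% were lower and 4.11% higher by that test. The differences (E0771 minus AT-3, log2 scale) included Wdr12 at -0.49, Ddx21 at -0.44, Tcof1 at -0.40, Nhp2 at -0.54, Rrp12 at -0.60, Rrp9 at -0.55 and Myc at -0.54.

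In the surrounding lists the KCl effect differed between the lines for 24 of 41 other small subunit factors, 15 of 40 other large subunit factors, 7 of 11 other snoRNP factors and 11 of 24 MYC-responsive genes, all lower in E0771. It differed for 1 of 17 other Pol I genes and 2 of 21 Pol III genes, also lower, and for 3 of the 12 MYC family genes and partners tested, higher in E0771. With 5.02% of all genes lower and 4.11% higher, the counts of the 2 polymerase lists are no result about those lists. Of 79 cytosolic ribosomal protein genes 0 passed by edgeR.

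The NS11021 effect differed between the lines in 1 member, Ubtf, by -0.29 on the log2 scale. Of all genes 2.5% were lower by the same test, a share equal to 1 of 40, and the call was lost without E0771 NS11021 replicate 2 (adjusted p = 0.0576).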

How the results depend on the processing

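No call of a member reversed under any alternative. All 39 members lower in E0771 with KCl were called under each of 8 settings that kept every replicate number in use, and 38 to 39 were when 1 library was left out. For the line difference in KCl, counts ran from 16 to 27 when 1 library was left out, and 12 of the 26 members lost the call at least once. Members called in E0771 ran from 6 to 10 with NS11021 (of all genes, 2553 to 2972 were called) and 4 to 9 with BMS204352 (2183 to 3005). Over KCl they ran from 2 to 3 with NS11021 (1576 to 1728) and 4 to 8 with BMS204352 (1759 to 2408). They ran from 0 to 1 between the compounds (109 to 406) and for the interaction of KCl with BMS204352 (83 to 322). In AT-3 they ran from 0 to 1 with BMS204352 (146 to 1743), 0 to 1 with KCl+BMS204352 over KCl (20 to 214) and 0 to 4 between the compounds (79 to 1070). The NS11021 line difference ran from 0 to 1 (270 to 552) and the BMS204352 one from 0 to 2 (556 to 1205). Calls over all genes thus also changed with the library left out. The causes of these changes were not tested.

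Under DESeq2, 3 members were called in AT-3 for KCl+BMS204352 over KCl, 3 between the compounds in AT-3, 1 between them in E0771 and 1 for the BMS204352 line difference. Between the compounds in E0771, 1 member, Npm1, was also called as higher with BMS204352 with DESeq2 size factors, with no filter and with a filter of 1 CPM in 3 libraries. Without the 3 libraries that stand apart 1 was called there in the opposite direction, Myc. With no filter, 1 was called between the compounds in AT-3 and 1 for the E0771 interaction. The filter of 1 CPM gave 1 in AT-3 for KCl+BMS204352 over KCl and 1 for the BMS204352 line difference. Without the 3 libraries, KCl+NS11021 over KCl in E0771 gave 8, KCl+BMS204352 over KCl 11 and the interaction 1. With only the groups compared, NS11021 in E0771 gave 17 (5 higher, 12 lower), BMS204352 3, KCl+NS11021 over KCl 8 and the NS11021 line difference 4. Member counts here and for the replicate block stand without shares of all genes, save those of DESeq2 given above. Changes in these counts are therefore no result about the members, and their cause was not tested.

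The main fits did not pair libraries by replicate number, and whether the numbers mark pairs is not settled. Of 45 same-numbered pairs, 3 in AT-3 and 1 in E0771 correlated above 0.1. The median correlation in AT-3 was 0.036 for the same number and -0.015 for other numbers. Yet 18 of 18 AT-3 and 13 of 18 E0771 libraries correlated best with their own number, a hint from the data and not the design. With the replicate block, 39 members were lower in E0771 with KCl and 32 in the line difference. The block gave 1 in AT-3 with NS11021, 1 with BMS204352, 10 for KCl+BMS204352 over KCl and 7 between the compounds, the last 2 counts all lower. In E0771 the block gave 7 for KCl+NS11021 over KCl and 1 between the compounds, and it gave 6 and 2 for the NS11021 and BMS204352 line differences.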
